A study of Mus musculus with 2 samples.

Results

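Integrins and laminins are the adhesion receptors and basement membrane proteins of the brain, and 37 of the 19070 measured genes belong to these families. They were taken by symbol and comprise 18 integrin alpha subunits (Itga1 to Itga11, Itga2b, Itgad, Itgae, Itgal, Itgam, Itgav and Itgax), 8 integrin beta subunits (Itgb1 to Itgb8) and 11 laminin chains (alpha, beta and gamma). The samples were 2 coronal brain sections of male C57Bl6 mice aged 3 months after controlled cortical impact (CCI), a blow to the exposed cortex of one hemisphere that models focal traumatic injury. The first section was taken at 3 days and the second at 28 days, each from a different animal, with 1 animal per time point. The labels call the mice untreated, and there was no section of an uninjured brain, so the opposite side of each section was the reference.

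An integrin is a pair of an alpha and a beta subunit that spans the plasma membrane and ties matrix or a neighbouring cell to the cytoskeleton. Pairs with Itgb2 are found on leukocytes and microglia, pairs with Itgb1 bind collagen, fibronectin or laminin depending on the alpha chain, and pairs with Itgav bind proteins with an RGD motif, among them the latent form of TGF-beta. A laminin is a trimer of an alpha, a beta and a gamma chain. In the brain, laminins form the basement membranes around vessels and under the pia, to which endothelial cells, mural cells and astrocyte endfeet adhere.

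Itgam, Itgax and Itgad, which encode the alpha chains of CD11b, CD11c and CD11d, lie in a row over 143 kb of mouse chromosome 7, with 11.03 kb between the end of Itgam and the start of Itgax. Itgax had 15 UMIs in the injured tissue at 3 days and 456 at 28 days, and Itgam had 811 and 1484, so the 250 bases before a RefSeq start of each are shown (GRCm38.p6, plus strand). The Itgax window runs past another annotated start of the gene, at 128129526, which is the start used for the distance. The Itgam window is chr7:128062390-128062639 and the Itgax window is chr7:128129300-128129549. Capitals mark GAGGAA, a purine-rich core of the kind bound by the myeloid factor PU.1, searched on both strands, so that a match on the other strand reads TTCCTC.
Itgam promoter: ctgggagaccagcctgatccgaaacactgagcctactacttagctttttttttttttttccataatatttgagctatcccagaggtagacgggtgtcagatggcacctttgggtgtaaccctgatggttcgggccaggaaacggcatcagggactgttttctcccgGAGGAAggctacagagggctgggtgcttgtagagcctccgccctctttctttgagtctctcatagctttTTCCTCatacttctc
Itgax promoter: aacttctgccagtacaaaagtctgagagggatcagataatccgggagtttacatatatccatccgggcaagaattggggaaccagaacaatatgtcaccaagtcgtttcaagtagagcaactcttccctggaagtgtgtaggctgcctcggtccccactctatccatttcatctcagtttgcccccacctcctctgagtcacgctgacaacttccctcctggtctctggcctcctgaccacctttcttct
The Itgam window held 2 matches, which began 84 and 15 bases before the start, and the Itgax window held 0. Of all 32851 promoters of this length, 7639 (23.3%) held the motif. A promoter was listed for 23 of the 37 genes. Of these genes, 13 held the motif in a listed promoter, among them Itga5, Itgav, Itgb1, Lama5 and Lamb2. The 23.3% counts promoters, whereas the 13 of 23 counts genes, and a gene can have several promoters. These shares are therefore not comparable, and an excess of the motif in the families was not tested. A match is a match of letters only.

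Expression was measured with Visium HD, in which probe pairs hybridised to the fixed section are counted as unique molecular identifiers (UMIs) in squares of 16 µm, called bins, each of which can hold parts of several cells. The sections held 120615873 UMIs at 3 days and 82422389 at 28 days, a median of 836 and 596 UMIs per bin. The 37 genes took 108550 (0.0900%) and 76861 (0.0933%) of these. In each section 36 of the 37 genes had at least 20 UMIs, and Itgad had 6 and 9. A bin address present in both sections occurred 84781 times (69.5% of the 3 day and 80.3% of the 28 day bins), because the array grid is common to all slides. Levels are given as CPM, the UMIs of a gene in an area divided by all UMIs there and scaled to a common total. Probes differ in efficiency, so levels are compared between areas, and an order of genes by CPM served only to choose which to describe. Intervals in brackets are 95% intervals that cover counting error only and leave out the spread between animals, and no test of injury or of time was possible with 1 section per group.

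The injured tissue was placed by 6 phagocyte genes outside the families (Cd68, Lyz2, Ctsz, Lgals3, Cd52 and Laptm5). At 3 days this zone took up 571 of the 2509 tiles (squares of 64 µm) of the injured side (22.8%), and at 28 days 903 of 3259 (27.7%), with 8506 and 13559 bins. Its reflection over the border between the sides, the mirror zone or mirror, held 7855 and 11747 bins, and 92.3% and 86.6% of the zone's bins had a reflected partner over tissue. The border lay at column 130 of the array at 3 days and at column 240 at 28 days, whereas the line over which 10 region genes outside the zone mirrored each other best was column 154 at 3 days and column 240 at 28 days. The 3 day mirror may therefore not lie on the matching tissue, and a reflection over column 154 is given as an alternative. At 3 days 34 tiles of the zone lay at the edge of the array. The zone was shallower, with a mean of 607 UMIs per bin against 927 in its mirror in the 3 day section and 528 against 628 in the 28 day section. Because phagocyte genes placed the zone, genes that phagocytes use had to be high in it, and the size of their difference there is a description. A higher level in an area can come from more cells of a type or from more RNA per cell, which cannot be told apart in bins.

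Most of the families' genes had a higher level in the zone than in its reflection. Among members with at least 20 UMIs over both areas, 19 of 31 were at least 2-fold higher at 3 days, where 17.0% of all 13542 genes were, and 19 of 34 at 28 days, where 16.4% of all 13593 genes were. At least 2-fold lower was 1 of 31 at 3 days, Itga8 (8.57% of all genes), and 0 of 34 at 28 days (7.82%). With UMIs per bin in place of CPM, 10 of 31 were at least 2-fold higher at 3 days (8.97% of all genes) and 15 of 34 at 28 days (13.2%). Those no longer past 2-fold at 3 days were Itga6, Itga11, Itgav, Itgb3, Itgb4, Itgb5, Lama1, Lamb2 and Lamc1. With the reflection over column 154, 23 of 30 were higher (18.8%) and 0 lower (8.52%). The median log2 ratio of the members was 1.27 at 3 days and 1.05 at 28 days, against 0.13 and -0.000728 over all genes. The other cell populations of the tissue differed too. The 9 microglia and macrophage markers summed to 2930 CPM in the zone against 841 in the mirror at 3 days (8 of 9 at least 2-fold higher), and to 6996 and 455 CPM at 28 days (9 of 9). The 2 excitatory neuron markers summed to 295 CPM against 1183 in the mirror at 3 days and to 264 and 637 CPM at 28 days (2 of 2 at least 2-fold lower each time), and the 3 inhibitory neuron markers to 253 and 334 CPM (1 of 3 lower) and to 194 and 581 CPM (3 of 3), with none at 0. The part of cell composition in the ratios below was not tested.

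**Figure D1:**
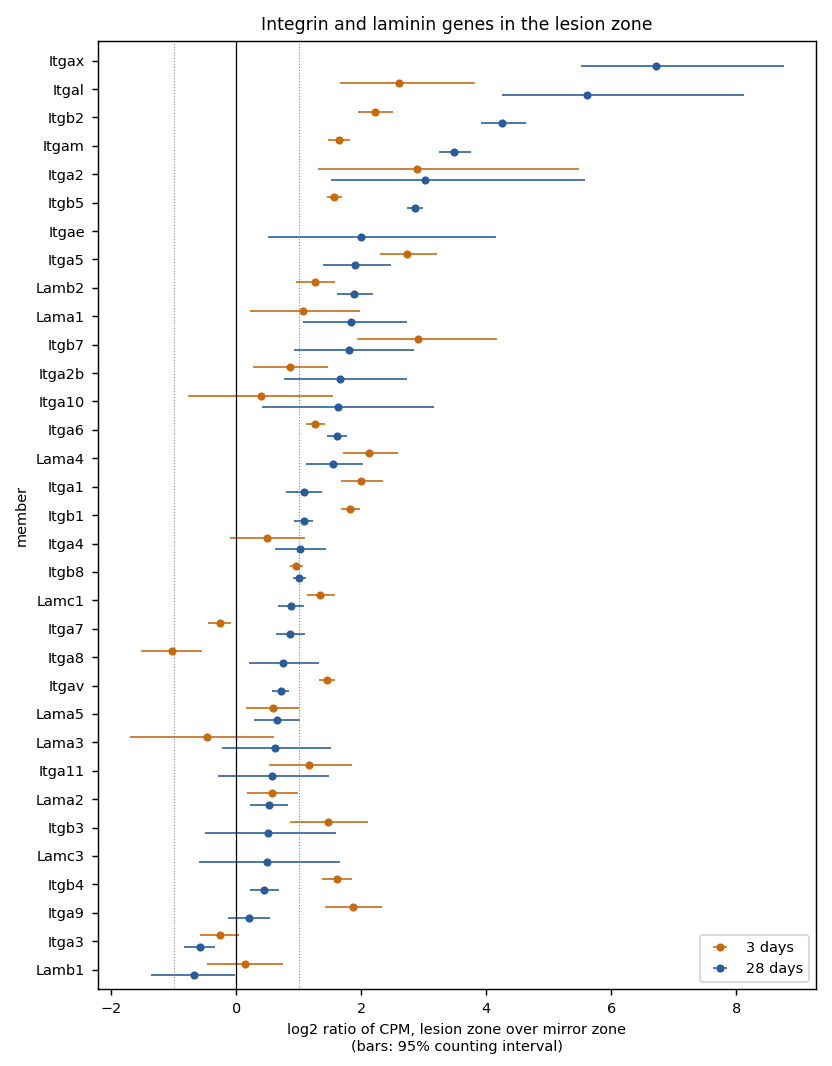
Log2 ratio of CPM in the zone over CPM in the mirror zone for the members described here with at least 20 UMIs over both areas, at 3 days and at 28 days, with 95% intervals for counting error. Of the tested members, 19 lay at or above 1 (2-fold) in each section, with Itgax at 6.71 the highest at 28 days and Itga8 at -1.02 the lowest at 3 days.

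The leukocyte integrins had the highest ratios of the families at 28 days. Itgax, the alpha chain of CD11c that marks dendritic cells and a reactive state of microglia, had 15 UMIs in the zone against 1 in the mirror at 3 days (2.91 and 0.137 CPM), too few to be compared. At 28 days it had 456 and 4 UMIs (63.7 and 0.542 CPM), a log2 ratio of 6.71 (5.51 to 8.76). At least 1 Itgax UMI was seen in 0.165% of the zone's bins at 3 days and in 3.09% at 28 days, against 0.0127% and 0.0341% of the mirror's bins, so Itgax was abundant only in the section taken at 28 days. Itgal, the alpha chain of LFA-1, had 8.72 CPM in the zone against 1.37 in the mirror at 3 days (log2 2.61, 1.66 to 3.82). At 28 days Itgal had 23.1 and 0.406 CPM (log2 5.61, 4.25 to 8.12), the latter from 3 UMIs. Itgad stayed near the floor, with 2 UMIs in the zone against 0 in the mirror in each section, and the floor of 3 counts allows no fold.

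Itgam and Itgb2, which pair as CD11b/CD18 on microglia, macrophages and neutrophils, were measured with more UMIs and were high in the zone at both times. Itgam had 157 CPM in the zone, 50.3 in the mirror and 22.8 over the whole opposite side of the 3 day section, and 207, 18.4 and 19.5 CPM at 28 days. The log2 ratios of Itgam over the mirror zone were 1.64 (1.46 to 1.83) and 3.49 (3.24 to 3.76). The mirror zone's own level of Itgam was thus above that of the whole opposite side at 3 days and near it at 28 days. Itgb2, the shared beta chain, had 91.2 CPM in the zone, 19.5 in the mirror and 9.26 over the opposite side of the 3 day section, and 178, 9.21 and 7.79 CPM at 28 days. Its log2 ratios were 2.22 (1.95 to 2.51) and 4.26 (3.92 to 4.64). The 4 neutrophil markers, of which 2 had enough UMIs, summed to 52.7 CPM in the zone against 1.24 in the mirror at 3 days and to 65.4 and 0.813 CPM at 28 days. The 6 T cell markers, of which 1 and 2 had enough UMIs, summed to 9.10 and 1.37 CPM at 3 days and to 12.4 and 6.64 CPM at 28 days, where Cd8a was at least 2-fold higher and Cd4 at least 2-fold lower, and none of either list was at 0. The part of neutrophils and T cells in Itgal, Itgam and Itgb2 was not tested.

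The integrins Itgb7 and Itgae, a pair of mucosal and tissue-resident lymphocytes, were sparse. Itgb7 had 9.68 CPM in the zone against 1.24 in the mirror at 3 days (50 and 9 UMIs, log2 2.91, 1.93 to 4.18), and 6.29 and 1.76 CPM at 28 days (45 and 13 UMIs, log2 1.80, 0.92 to 2.85). Over the opposite side Itgb7 had 1.09 and 1.15 CPM. Itgae had 2 and 5 UMIs at 3 days, too few to be compared. At 28 days Itgae had 17 UMIs in the zone against 4 in the mirror (2.38 and 0.542 CPM, log2 2.00, 0.52 to 4.16). Itga4, the alpha chain of VLA-4 that binds Vcam1, had 49 UMIs in each area at 3 days (9.49 and 6.73 CPM, log2 0.50, -0.10 to 1.10). At 28 days it had 154 and 78 UMIs (21.5 and 10.6 CPM, log2 1.02, 0.62 to 1.44), just past the 2-fold line.

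**Figure D2:**
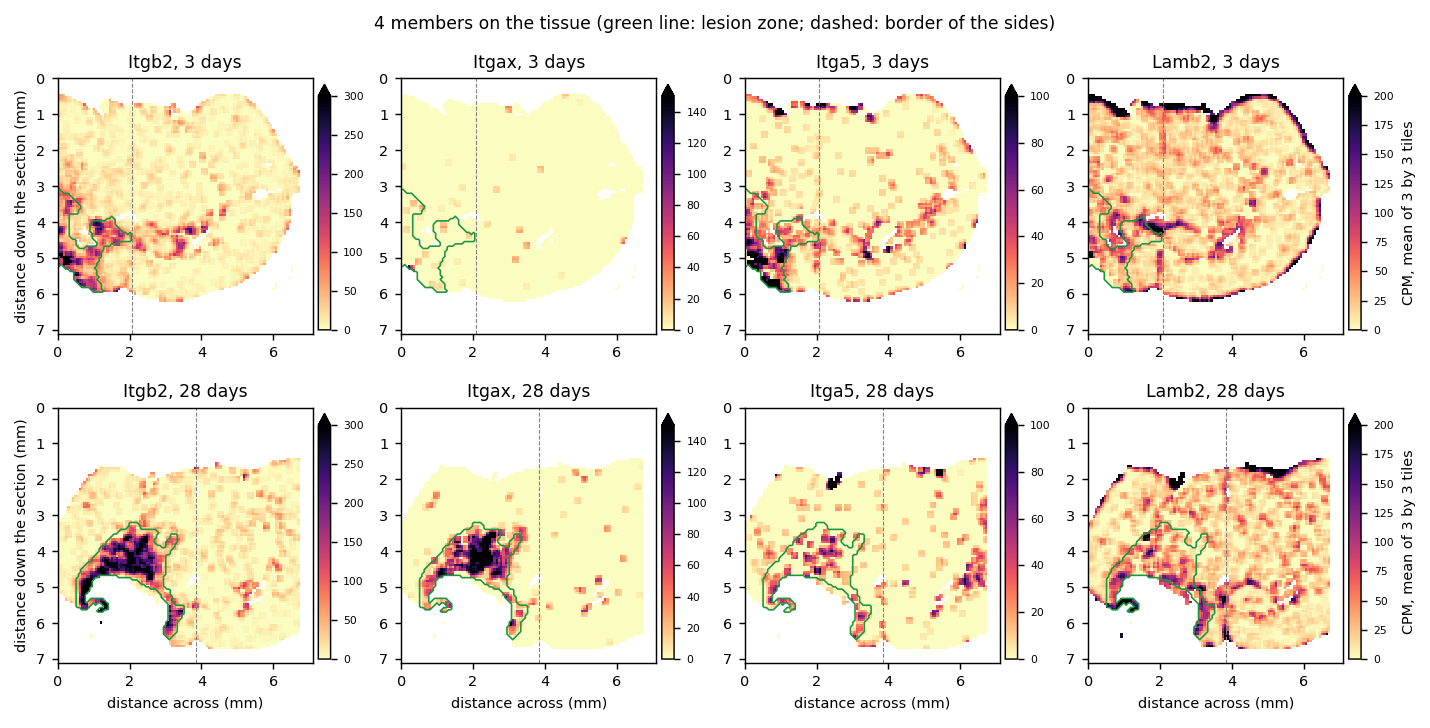
Levels of Itgb2, Itgax, Itga5 and Lamb2 on both sections, in tiles of 64 µm coloured by CPM, with the zone outlined in green and the border between the sides dashed. Itgax stood out in the zone of the 28 day section (63.7 CPM) and not at 3 days (2.91 CPM), whereas Itga5 was higher in the zone at 3 days (45.9 CPM) than at 28 days (19.4 CPM).

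Itgb3, Itgb5, Itgb6 and Itgb8 all pair with Itgav. Among those with enough UMIs to be compared, Itgb5 had the highest measured ratio in both sections. Itgb5, which microglia express in the uninjured brain and which pairs with Itgav as a vitronectin receptor, had 322 CPM in the zone, 108 in the mirror and 77.5 over the opposite side of the 3 day section (log2 1.57, 1.45 to 1.70). At 28 days it had 582, 80.3 and 79.5 CPM, with a log2 ratio of 2.86 (2.73 to 2.98) from 4164 and 593 UMIs. Itgav, the shared alpha chain, had 279 CPM in the zone against 102 in the mirror at 3 days (log2 1.45, 1.32 to 1.58) and 156 and 94.96 CPM at 28 days (log2 0.71, 0.57 to 0.85). The ratios of Itgb5 and Itgav thus lay close together at 3 days and apart at 28 days. Itgb8, which astrocytes use to activate TGF-beta, had 342 and 175 CPM at 3 days (log2 0.96, 0.86 to 1.07) and 334 and 166 CPM at 28 days (log2 1.01, 0.91 to 1.11), on either side of the 2-fold line. The 6 astrocyte markers summed to 1702 CPM in the zone against 939 in the mirror at 3 days (2 of 6 at least 2-fold higher) and to 3165 and 981 CPM at 28 days (4 of 6), with none at 0, and their part in the Itgb8 level was not tested. Itgb3, the beta chain of platelets and angiogenic endothelium, had 13.0 and 4.67 CPM at 3 days (log2 1.46, 0.86 to 2.12), and 2.93 and 2.03 CPM at 28 days (log2 0.52, -0.50 to 1.59). Itga2b, its platelet partner, had 11.04 and 6.04 CPM at 3 days (log2 0.87, 0.28 to 1.47), and 5.73 and 1.76 CPM at 28 days (log2 1.66, 0.77 to 2.73). The 3 platelet markers, of which 2 had enough UMIs, summed to 43.2 CPM in the zone against 1.51 in the mirror at 3 days, and the 4 red cell markers to 228 and 5.77 CPM (3 with enough UMIs). At 28 days the platelet markers summed to 2.79 and 0.948 CPM, with Ppbp at 0, and the red cell markers to 2.65 and 1.90 CPM. The 4 ependymal markers summed to 214 and 170.4 CPM at 3 days (0 of 4 at least 2-fold higher) and to 197 and 47.7 CPM at 28 days (4 of 4), with none at 0. The part of blood and of ependymal cells in the Itgb3 and Itga2b levels was not tested. Itgb6, an epithelial beta chain, had 3 and 1 UMIs at 3 days and 2 and 1 at 28 days, too few to be compared.

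Itga5, Itgb1, Itga1 and Itga9, subunits of receptors for fibronectin, collagen and tenascin, had higher measured ratios in the 3 day section than in the 28 day section, a difference that was not tested. This did not hold for all such receptors. Of the other collagen receptors, given below, Itga11 went the same way, and Itga2 and Itga10 had the higher ratio at 28 days, as did Itga4. Itga5, the alpha chain of the main fibronectin receptor, had 237 UMIs in the zone against 50 in the mirror at 3 days (45.9 and 6.86 CPM, log2 2.73, 2.30 to 3.21). At 28 days Itga5 had 139 and 38 UMIs (19.4 and 5.15 CPM, log2 1.90, 1.39 to 2.47). Itgb1, the beta chain shared by these receptors, had 247 and 69.5 CPM at 3 days (log2 1.83, 1.68 to 1.98) and 149 and 70.7 CPM at 28 days (log2 1.08, 0.93 to 1.23). The level of Itgb1 over the whole opposite side was 68.1 CPM at 3 days and 69.2 at 28 days, so the sections differed in the zone and hardly on the opposite side. Itga1, a collagen receptor of mural and endothelial cells, had 291 UMIs in the zone (56.4 CPM) and 102 in its mirror at 3 days (log2 2.00, 1.68 to 2.35) and 315 and 153 at 28 days (44.0 and 20.7 CPM, log2 1.08, 0.80 to 1.37). Itga9, which binds tenascin-C and osteopontin, had 28.1 and 7.69 CPM at 3 days (log2 1.86, 1.41 to 2.34). At 28 days Itga9 had 21.7 and 18.8 CPM, and the interval of its ratio included 0 (log2 0.20, -0.14 to 0.54). Over the whole opposite side Itga9 had 12.6 CPM at 3 days and 15.1 CPM at 28 days. The mirror's level of Itga9 thus lay below that of the whole side at 3 days and above it at 28 days. Its 2 ratios therefore differed partly through the reference area.

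The other collagen receptors had few UMIs. Itga2 had 18 UMIs in the zone against 3 in the mirror at 3 days (3.49 and 0.412 CPM, log2 2.90, 1.31 to 5.49), and 27 and 3 at 28 days (3.77 and 0.406 CPM, log2 3.02, 1.51 to 5.58). Itga11, a receptor of fibroblasts, had 10.3 and 4.53 CPM at 3 days (log2 1.17, 0.53 to 1.85, and 0.75 against the whole opposite side) and 4.05 and 2.71 CPM at 28 days (log2 0.57, -0.29 to 1.48). Itga10 had 14 and 15 UMIs at 3 days (2.71 and 2.06 CPM, log2 0.40, -0.76 to 1.55), and 22 and 7 at 28 days (3.07 and 0.948 CPM, log2 1.63, 0.42 to 3.17, and 0.29 against the whole opposite side). The 7 fibroblast markers summed to 453 CPM in the zone against 134 in the mirror at 3 days (4 of 7 at least 2-fold higher) and to 372 and 51.2 CPM at 28 days (7 of 7). The 5 smooth muscle markers summed to 628 and 82.5 CPM at 3 days (4 of 5) and to 202 and 105 CPM at 28 days (2 of 4 with enough UMIs), and the 7 endothelial markers to 656 and 252 CPM at 3 days (5 of 7) and to 436 and 325 CPM at 28 days (0 of 7). None of these markers was at 0.

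The laminin receptors differed in direction. Itga6, which pairs with Itgb1 or Itgb4 and is found on endothelium and microglia, had 184 CPM in the zone against 76.6 in the mirror at 3 days (log2 1.27, 1.11 to 1.42) and 187 and 61.2 CPM at 28 days (log2 1.61, 1.45 to 1.77). Itgb4, the beta chain of hemidesmosomes, had 84.6 and 27.7 CPM at 3 days (log2 1.61, 1.37 to 1.86) and 52.7 and 38.5 CPM at 28 days (log2 0.45, 0.23 to 0.68). The 5 oligodendrocyte markers summed to 4352 CPM in the zone and 1644 in the mirror at 3 days (4 of 5 at least 2-fold higher) and to 3033 and 3264 CPM at 28 days (0 of 5), with none at 0, and their part in the Itgb4 level was not tested. Itga3 was lower in the zone by point estimate, with 26.3 and 31.6 CPM at 3 days (log2 -0.26, -0.58 to 0.05) and 31.0 and 46.6 CPM at 28 days (log2 -0.59, -0.84 to -0.34). Itga7, the laminin receptor of muscle that is also found in neurons and vessels, had 74.0 and 88.7 CPM at 3 days (log2 -0.26, -0.45 to -0.08) and 61.2 and 33.6 CPM at 28 days (log2 0.86, 0.64 to 1.10). The intervals of Itga7 thus lay on opposite sides of 0 in the 2 sections, but against the whole opposite side its 3 day log2 ratio was 1.08.

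The reference area of Itga7 and of Itga8, a receptor of nephronectin, held more Neurod6-rich tissue than the zone at 3 days. Itga8 had 9.49 CPM in the zone against 19.4 in the mirror at 3 days (log2 -1.02, -1.53 to -0.55) and 10.3 and 6.10 CPM at 28 days (log2 0.76, 0.21 to 1.33). Neurod6, a gene of hippocampal pyramidal and cortical neurons, had 298 CPM in the mirror zone and 13.0 in the zone at 3 days, and 80.2 and 15.2 CPM at 28 days. Tiles rich in Neurod6 held 15.99% of the mirror zone's bins at 3 days and 4.50% at 28 days. These tiles were taken as hippocampal without registration to an atlas, and 1744 of their 1968 bins on the opposite side at 3 days also met the marker rule of cortical layer 6. At 3 days 452 of the 646 Itga7 UMIs and 85 of the 141 Itga8 UMIs of the mirror zone lay in Neurod6 or dentate gyrus tiles, against 72 of 248 and 5 of 45 at 28 days. Without these tiles in either area, the log2 ratio of Itga7 was 0.74 at 3 days and 1.21 at 28 days, and that of Itga8 was -0.41 and 0.78. The 3 day ratio of Itga7 thus changed sign without the Neurod6 and dentate gyrus tiles, and that of Itga8 came within 2-fold. At 3 days this took the mirror from 7855 to 6035 bins and the zone from 8506 to 8458. Tiles rich in both genes thus left almost only the mirror, so both ratios had to rise. Whether the zone had lost such tissue to the injury or never held it was not tested. The direction of Itga8 also turned with other areas, to a log2 ratio of 0.23 at 3 days for a zone above the 95th percentile and to -0.44 at 28 days against the whole opposite side.

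Among the laminins, Lama4, Lamb2, Lamc1 and Lama1 were at least 2-fold higher in the zone of at least 1 section. Lama4, the alpha chain of endothelial laminin-411, had 36.2 CPM in the zone against 8.24 in the mirror at 3 days (log2 2.13, 1.71 to 2.58) and 22.4 and 7.59 CPM at 28 days (log2 1.55, 1.11 to 2.02). Lamb2, the beta chain of mural and perivascular laminins, had 44.9 and 18.7 CPM at 3 days (log2 1.26, 0.96 to 1.58) and 64.5 and 17.3 CPM at 28 days (log2 1.89, 1.61 to 2.19). Lamc1, the gamma chain of most laminins, had 90.3 and 35.4 CPM at 3 days (log2 1.35, 1.13 to 1.57) and 71.5 and 39.0 CPM at 28 days (log2 0.87, 0.66 to 1.09). The ratio was higher at 3 days for Lama4 and Lamc1 and at 28 days for Lamb2, a difference between sections that was not tested. Lama1, the alpha chain of the pial basement membrane, had 5.81 and 2.75 CPM at 3 days (log2 1.07, 0.22 to 1.98) and 8.38 and 2.30 CPM at 28 days (log2 1.83, 1.07 to 2.73). With UMIs per bin in place of CPM, the 3 day log2 ratios of Lamb2 (0.65), Lamc1 (0.74) and Lama1 (0.46) were under 2-fold, so that Lamc1 was then past 2-fold in neither section. Without ventricular, choroid plexus and fibroblast-rich tiles, those of Lama1 (0.68 at 3 days and 0.24 at 28 days) and of Lama4 at 28 days (0.68) were under 2-fold.

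The other laminin chains described here lay within 2-fold where they could be compared. Lama2, the chain of astrocyte and muscle basement membranes, had log2 ratios of 0.58 (0.17 to 0.99) and 0.52 (0.21 to 0.84). Lama5 had 0.59 (0.16 to 1.01) and 0.65 (0.29 to 1.03). Lamb1, the alternative to Lamb2 in the trimer, had 8.33 and 7.55 CPM at 3 days (log2 0.14) and 4.47 and 7.18 CPM at 28 days (log2 -0.67, -1.36 to -0.02). The levels of Lamb1 and Lamb2 thus differed in direction at 28 days. The 9 choroid plexus markers summed to 113 CPM in the zone against 235 in the mirror at 3 days (6 of 9 at least 2-fold lower) and to 52.1 and 78.3 CPM at 28 days (4 of 9), with none at 0, and their part in the levels of Lamb1 and Lama5 was not tested. Lama3, an epithelial chain, had intervals that included 0 in both sections. Lamc3 had 7 UMIs in each area at 3 days and a log2 ratio of 0.50 at 28 days. Lamb3, an epithelial beta chain, had 7 and 2 UMIs at 3 days and 14 and 1 at 28 days, too few to be compared.

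When strips of equal width on either side of the border were compared, fewer members differed. The strips held 39116 of the 39116 bins of the injured side and 41804 of the 80501 of the opposite side at 3 days, and 38739 of 49478 and 53838 of 53838 at 28 days. The 28 day strip left out part of the zone, and it held 1046 Itgb2 UMIs where the zone alone held 1271. At least 2-fold higher on the injured side were 8 of 36 members at 3 days (6.73% of all genes) and 8 of 36 at 28 days (8.11%), and at least 2-fold lower were 0 at either time (1.07% and 1.06%). The median log2 ratio of the members was 0.58 and 0.62, against 0.08 and 0.09 over all genes. At 3 days Itga5 had a log2 ratio of 1.53, Itgax 1.36, Itgal 1.32, Itgb2 1.14, Itgb7 1.09 and Itgam 1.04, and the sparse Itgb6 and Lamb3 had 1.55 (23 and 8 UMIs) and 1.11 (21 and 10 UMIs). At 28 days Itgax had 4.81 (435 and 27 UMIs), Itgal 2.66, Itgb2 2.39, Itga2 1.80, Itgam 1.53, Itgb5 1.32, Lamb3 1.12 and Lama1 1.11. Itgam, Itgb2, Itgal, Itgax and Lamb3 were past 2-fold in both sections. The 3 day side ratio of Itgax rested on few UMIs, as did that of Lamb3. With all bins of each side in place of the strips, Lamb3 at 3 days (log2 0.46) and Lama1 at 28 days (log2 0.95) were no longer past 2-fold, and 9 members at 3 days (10.5% of all genes) and 7 at 28 days (6.43%) were. The other members described here lay between -0.49 (Itgae) and 0.94 (Itga2) at 3 days and between -0.17 (Itgav) and 0.89 (Itga2b) at 28 days. Itgb1 had side ratios of 0.56 and 0.48, Itga6 of 0.48 and 0.72, Itgav of 0.34 and -0.17, and Itgb8 of 0.42 and 0.47. Among the laminins Lama4 had 0.52 and 0.19, Lamb2 0.59 and 0.77, and Lamc1 0.49 and 0.41, all smaller than in the zone. Markers of other cell types differed between the sides too. The 9 choroid plexus markers summed to 384 CPM on the injured side and 97.9 on the opposite side at 3 days and to 348 and 137 CPM at 28 days (9 of 9 at least 2-fold higher each time), the 7 fibroblast markers to 298 and 153 CPM and to 208 and 89.3 CPM (4 of 7 each time), and the 5 smooth muscle markers to 302 and 135 CPM (2 of 5) and to 286 and 134 CPM (4 of 5). The 9 microglia and macrophage markers summed to 1096 and 576 CPM (4 of 9) and to 1960.4 and 439 CPM (7 of 9). At 3 days the 4 neutrophil markers summed to 8.47 and 1.11 CPM (2 of 2 with enough UMIs higher) and the 6 T cell markers to 2.95 and 1.01 CPM (1 of 2). At 28 days these sums were lower in the injured strip, which left out part of the zone. The neutrophil markers had 1.25 and 4.14 CPM (0 of 3 higher and 2 lower) and the T cell markers 3.83 and 4.96 CPM (2 of 3 higher and 1 lower). In the whole zone at 28 days the neutrophil markers summed to 65.4 CPM, so this direction holds for the strips only. None of these markers was at 0, and their part in the side ratios, among them that of Itgb6, was not tested.

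Over the whole opposite side the levels in the 2 animals lay close together for most members. Itgb8 had 153 CPM at 3 days and 157 at 28 days, Itgb5 had 77.5 and 79.5, Itga6 had 51.5 and 49.6, and Itga7 had 35.1 and 33.6. For the laminins the opposite side had 38.3 and 36.0 CPM of Lamc1, 21.1 and 19.99 of Lamb2, 11.9 and 11.3 of Lama4, and 2.91 and 2.70 of Lama1. Itga1 had 16.6 and 17.7 CPM there, Itga9 12.6 and 15.1, Itgb4 17.7 and 21.8, Itga8 16.3 and 14.1, and Itga4 11.05 and 7.79. Itgal and Itgax were low there, with 1.12 and 0.753 CPM of Itgal and 0.169 and 0.598 CPM of Itgax.

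Itgb2, Itgam and Itgb5 had lower levels in each band than in the zone. At 3 days Itgb2 had 33.2 CPM within 250 µm of the zone, 15.2 at 250 to 500 µm and 15.4 at 500 to 1000 µm, and Itgam had 79.7, 54.9 and 42.3 CPM. Both genes were still above their level over the whole opposite side, 9.26 and 22.8 CPM, in the outermost band. The mirror zone's own levels of both genes, given above, were higher than that at 3 days. Ratios of these bands over their own mirrors are not given here, so a reach of the difference to this distance was not tested. At 28 days Itgb2 had 16.6, 7.18 and 7.59 CPM in these bands and Itgam 30.6, 18.6 and 18.1 CPM, both at the level of the opposite side from 250 µm on. Itgax at 28 days had 6.08, 0.611 and 0.367 CPM, so its level was 63.7 CPM in the zone, 6.08 in the first band and that of the opposite side in the next.
Itgb5 had 199, 127 and 104 CPM at 3 days and 138, 90.9 and 69.9 CPM at 28 days. Itga5 at 3 days had 12.8, 5.28 and 3.31 CPM, and at 28 days 2.82, 3.51 and 2.69 CPM, against 3.65 and 3.56 CPM over the opposite side. Against its own mirror the first band of Itga5 was higher in both sections, with log2 ratios of 0.96 (0.36 to 1.61) at 3 days and 1.58 (0.21 to 3.45, from 19 and 5 UMIs) at 28 days. Itgb1 had 127, 85.6 and 70.6 CPM at 3 days and 79.4, 74.1 and 63.1 CPM at 28 days. Itga6 had 109.7, 79.5 and 76.5 CPM and then 62.2, 48.0 and 41.4 CPM.
Some laminins were higher beside the zone than in it. At 3 days Lama5 had 46.1 CPM in the first band and 19.2 in the zone, Lamb2 had 53.4 and 44.9 CPM, and Lamb1 had 14.8 and 8.33 CPM. Choroid plexus tiles held 897 bins on the injured side outside the zone at 3 days and 26 in the zone. Fibroblast-rich tiles held 1049 and 398 bins. The part of these tissues in the band levels of the laminins was not tested. In the same section Lama4 had 18.2 CPM in the first band and 36.2 in the zone, and Lamc1 had 63.9 and 90.3 CPM. At 28 days Lamb2 had 25.4, 23.8 and 19.7 CPM over the 3 bands, Lamc1 43.2, 39.7 and 34.5, and Lama4 14.2, 15.1 and 7.22, all below the zone, whereas Lamb1 had 8.01 CPM in the first band and 4.47 in the zone, and Lama5 had 22.7 and 22.2.

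**Figure D3:**
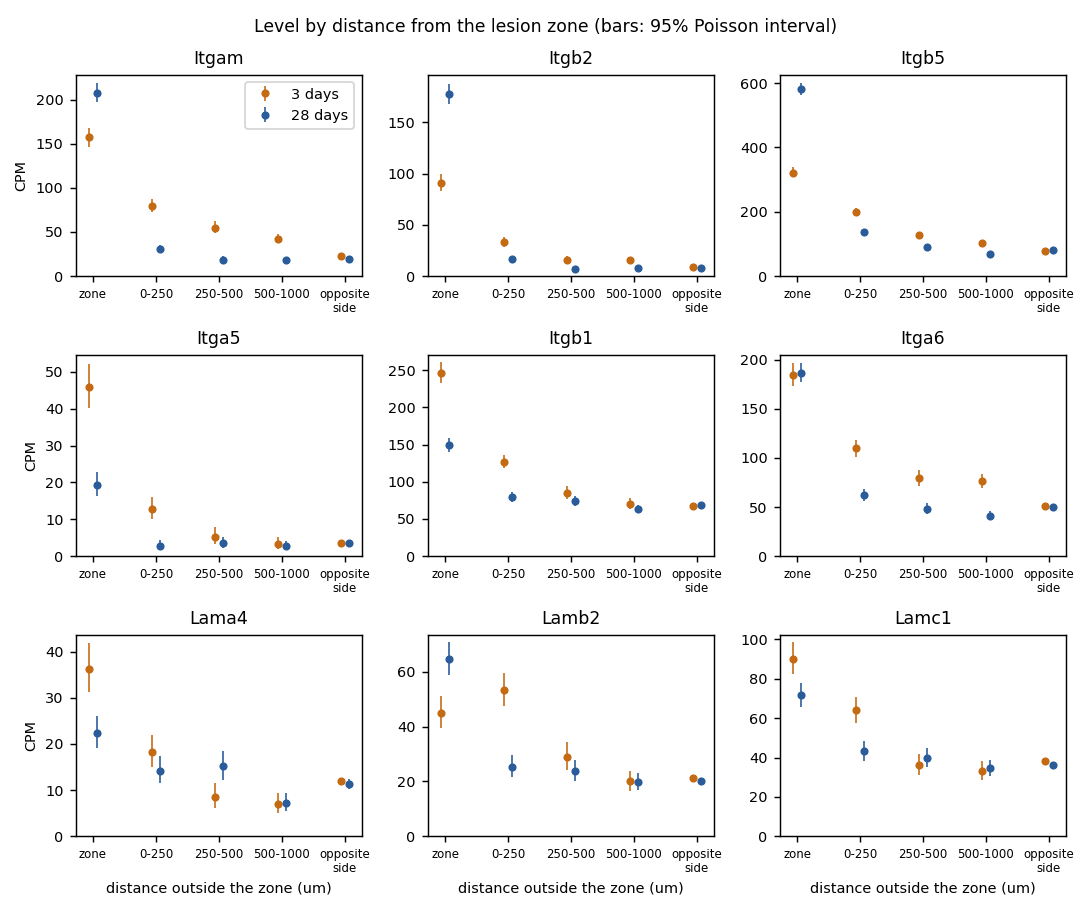
CPM of 9 members in the zone, in 3 bands of distance from it (0 to 250, 250 to 500 and 500 to 1000 µm) and over the whole opposite side, for each section, with 95% counting intervals. Itgam, Itgb2 and Itgb5 came down steeply from the zone at 28 days, and Lamb2 at 3 days was higher in the first band (53.4 CPM) than in the zone (44.9 CPM).

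In the bands the levels of other members varied less evenly. Itgav had 146, 92.3 and 75.7 CPM at 3 days and 88.7, 72.0 and 54.7 CPM at 28 days, against 104 and 93.2 CPM over the opposite side. Itgb8 had 307, 198 and 151 CPM at 3 days and 206, 162 and 146 CPM at 28 days, against 153 and 157 CPM. Itgb4 had 51.2, 22.2 and 28.1 CPM and then 28.2, 17.1 and 11.3 CPM. These 3 genes were at or below the opposite side's level beyond 500 µm at 28 days. Itga1 had 35.4, 24.5 and 17.4 CPM at 3 days and 21.4, 25.7 and 15.4 CPM at 28 days. Itga9 had 21.6, 14.4 and 15.4 CPM and then 14.8, 21.9 and 13.6 CPM. Neither Itga1 nor Itga9 decreased evenly with distance at 28 days. Itga7 had 50.3, 40.6 and 34.7 CPM at 3 days and 37.0, 28.6 and 20.7 CPM at 28 days, and Itga8 had 23.5, 13.9 and 9.92 CPM and then 23.9, 16.7 and 10.2 CPM, so that both were highest in the band next to the zone among the 3 bands. Itga3 went the other way, with 26.3 CPM in the zone and 47.1, 52.8 and 65.3 CPM over the bands at 3 days, and 31.0 and then 54.6, 59.3 and 51.6 CPM at 28 days. Itga4 had 4.08, 15.4 and 13.4 CPM at 3 days and 8.01, 10.2 and 8.44 CPM at 28 days. The sparse members Itga2, Itga2b, Itga10, Itga11, Itgae, Itgal, Itgb3, Itgb7 and Lama1 had at most 8.56 CPM in any band.

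On the opposite side, where most tissue was away from the injury, the members differed in the compartment where they were highest. Tiles were named from fixed lists of region markers, except the Neurod6 tiles, which were added after the values were seen, and their levels here are from the 3 day and the 28 day section in that order. In fibroblast-rich tissue, which holds the meninges, 25 of 34 members with enough UMIs were at least 2-fold above the rest at 3 days (26.8% of all genes) and 26 of 33 at 28 days (26.4%). Itgb1 had 451 and 399 CPM there, Lamb2 295.5 and 286, Lamc1 230.4 and 242, and Lama4 157 and 187. The collagen receptors Itga1 (100.3 and 147 CPM), Itga10 (71.8 and 55.0) and Itga11 (58.3 and 47.6) were high in the same tiles, as were Lama1 (36.6 and 22.0) and Lama2 (86.7 and 128). The 28 day values of Itga10, Itga11 and Lama1 rested on 15, 13 and 6 UMIs.
In choroid plexus tiles 16 of 34 members were at least 2-fold higher at 3 days (23.0% of all genes) and 18 of 33 at 28 days (19.1%). Lama5 had 143 and 130.1 CPM, Lamb1 44.9 and 55.7, Itga3 109.0 and 111, Itgb8 548 and 529.6, and Itgb5 287 and 401. Lama5, Lamb1 and Itgb8 were thus highest in choroid plexus, and the collagen receptors with Lamb2 and Lama4 in fibroblast-rich tissue.
Single members were high in neuronal and glial regions. Itga7 had 163 and 145 CPM in Neurod6 tiles and 116 and 137 CPM in the dentate gyrus, against 35.1 and 33.6 CPM over the opposite side. Itga8 had 54.8 and 75.7 CPM in the dentate gyrus and 31.1 and 23.5 CPM in upper cortical layers, and 56.9 and 98.9 CPM in fibroblast-rich tissue. Itga9 had 59.7 and 50.4 CPM in the striatum and 56.9 and 62.3 CPM in fibroblast-rich tissue. Itga3 had 81.4 and 85.0 CPM in the thalamus. Among the regions placed by marker lists, Itga4 was highest in upper cortical layers at 3 days (25.2 CPM) and in the dentate gyrus at 28 days (29.5 CPM from 41 UMIs). Itgb4 was highest along myelin and ventricle, with 145 and 169 CPM in white matter and 176 and 110.04 CPM in the ventricular wall. Itga2b had 47.8 and 12.0 CPM in the ventricular wall (25 and 5 UMIs), against 2.41 and 1.79 CPM over the opposite side. Itgam in white matter had 85.5 and 69.7 CPM, against 22.8 and 19.5 CPM over the side as a whole.

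**Figure D4:**
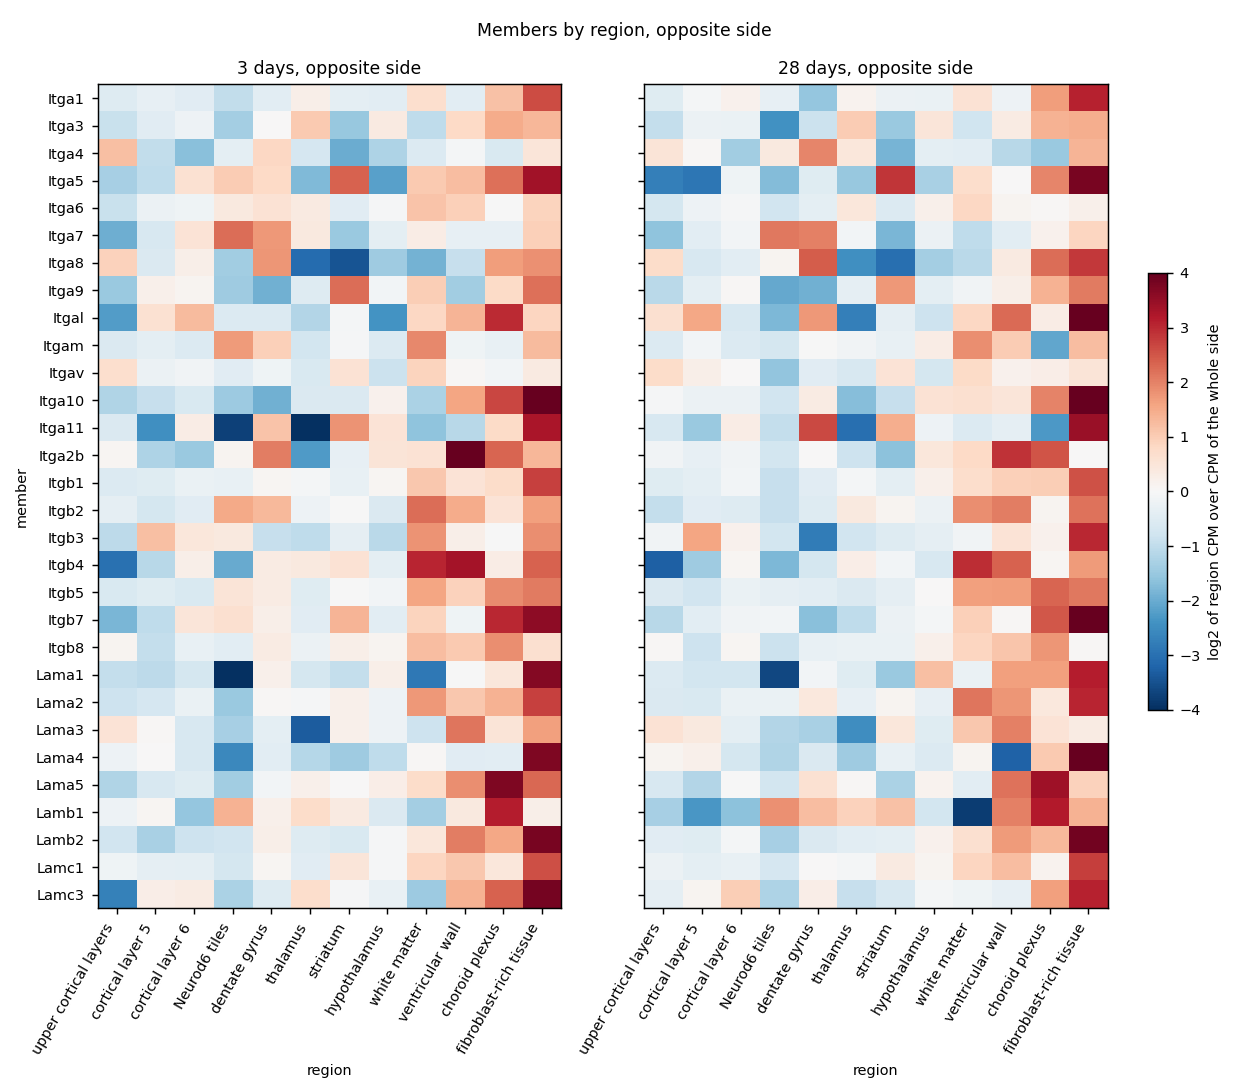
Log2 ratio of CPM in tiles of each region over CPM of the whole opposite side, for the members described here with at least 20 UMIs on both opposite sides, in both sections. Lama1, Lama4, Lamb2, Lamc1, Itga1 and Itga10 were highest in fibroblast-rich tissue, Lama5, Lamb1 and Itgb8 in choroid plexus and Itga7 in Neurod6 tiles (163 and 145 CPM), and Itga9 was high in striatum (59.7 and 50.4 CPM).

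Bins rich in markers of one cell type showed which cells the members' UMIs lay beside. These were the top 2% of bins by marker share, over the whole section, and 9.43% and 7.16% of marked bins were marked by more than 1 list. In microglia and macrophage bins, 15 of 36 members were at least 2-fold above other bins at 3 days (22.1% of all genes) and 14 of 36 at 28 days (19.8%). Itgb2 was 15.05 and 15.7 times its level over all bins, Itgam 13.8 and 12.2, Itgb5 8.10 and 9.47, and Itga6 4.73 and 4.08. Itgax was 28.6 times its level over all bins at 28 days (156 UMIs) and had 4 UMIs in these bins at 3 days, and Itgal 7.77 and 16.4 times.
Endothelial bins had 19 of 36 members (23.8% of all genes) and 25 of 36 (23.1%) at least 2-fold higher, and with the top 1% of bins 29 (28.4%) and 26 (27.6%), so the order of the sections turned. Without that change smooth muscle bins had 27 (26.0%) and 25 (22.4%), and fibroblast bins 30 (26.2%) and 29 (27.7%). In smooth muscle bins Lama1 was 15.5 and 16.1 times its level over all bins, Lamb2 12.8 and 12.9, Lama5 10.2 and 12.8, Itga1 10.7 and 11.9, and Itga8 8.60 and 14.2. Itga8 was therefore high both beside smooth muscle and in the dentate gyrus. In fibroblast bins Lama4 was 12.9 and 15.2 times, Itga10 15.4 and 12.5 times, and Itga11 11.2 and 11.1 times its level over all bins. Lama1 was 15.9 and 24.4 times its level there, above its multiple in smooth muscle bins in both sections. Itgb4 was 6.10 and 6.73 times in oligodendrocyte bins and 8.12 and 3.82 times in ependymal bins, Itga2b 13.2 and 12.0 times in ependymal bins, and Itga9 6.45 and 3.93 times in bins of oligodendrocyte precursors and 5.91 and 7.01 times in smooth muscle bins.

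**Figure D5:**
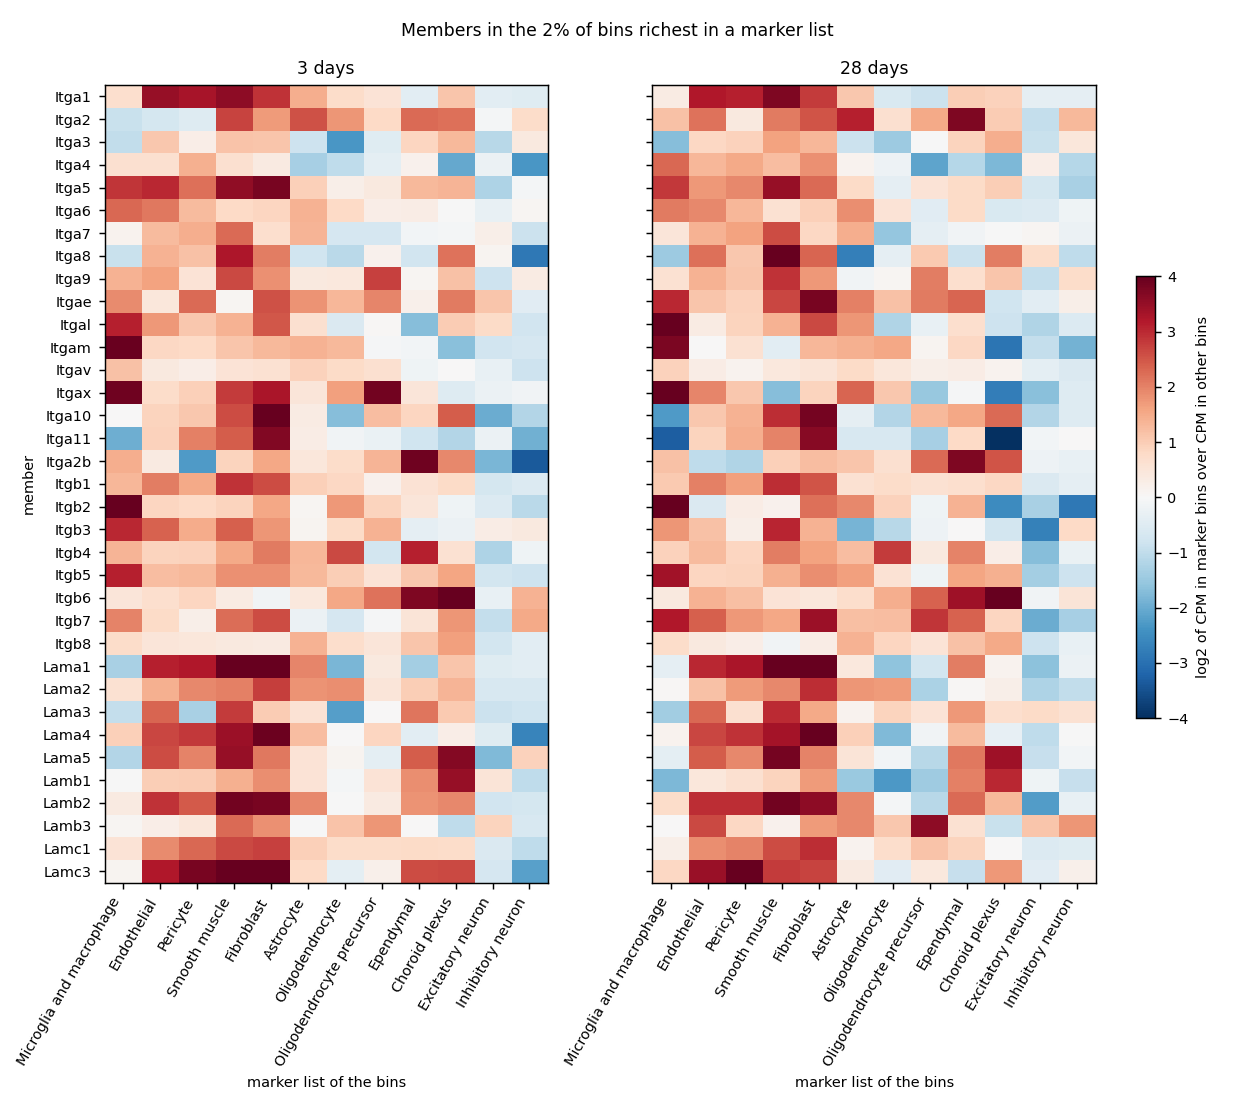
Log2 ratio of a member's CPM in bins rich in markers of a cell type over its CPM in other bins, for both sections. Itgb2, Itgam, Itgal and Itgax were high in microglia and macrophage bins, and Itga1, Lama1, Lama4, Lama5 and Lamb2 in endothelial, smooth muscle and fibroblast bins.

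Within bins of one cell type, the difference between the zone and the opposite side was smaller for some members and remained for others. In microglia and macrophage bins (812 in the zone and 770 on the opposite side at 3 days, 1839 and 77 at 28 days), Itgam had 463 and 419 CPM at 3 days (log2 0.14, -0.18 to 0.46). At 28 days Itgam had 437 and 838 CPM (log2 -0.98, -1.61 to -0.19), the latter from 19 UMIs. Itgb5 had log2 ratios of 0.00 (-0.23 to 0.23) and 0.30 (-0.28 to 1.01) in these bins, and Itgb2 had 0.49 (0.03 to 0.97) and 0.18 (-0.78 to 1.60). The ratios of Itgam, Itgb2 and Itgb5 in these bins were thus far below those of the whole zone over its mirror. The reference here was the opposite side and not the mirror. Microglia and macrophage markers chose the bins in both places, so genes that follow these cells had to differ less there. Itgax at 28 days had 195 and 44.1 CPM (153 UMIs and 1, log2 1.56, -0.36 to 7.46), an interval too wide to place it. Whether such bins held other cells in different shares in the zone and outside it was not tested.
Itga5 was higher in the zone at 3 days in every type of bin that follows. It had 158 CPM in endothelial bins of the zone and 26.8 CPM in those of the opposite side (log2 2.54, 1.54 to 3.65), and 289.7 and 32.5 CPM in fibroblast bins (log2 3.14, 2.43 to 3.93). In smooth muscle bins its log2 ratio was 2.30 (1.44 to 3.23), and in microglia and macrophage bins 1.68 (0.53 to 3.19). Endothelial bins at 3 days, of which 216 lay in the zone and 741 on the opposite side, also had more Itga6 (log2 1.23, 0.77 to 1.68), Itgb1 (1.02, 0.60 to 1.42) and Lama4 (1.20, 0.34 to 2.01) in the zone. Itga1 in the same bins had a log2 ratio of 0.17 (-0.43 to 0.71).
Lamb2 went the other way in smooth muscle bins at 3 days. It had 148 CPM in those of the zone and 341 CPM in those of the opposite side (log2 -1.18, -1.85 to -0.61), although its level over the whole zone was above that of the mirror zone. The markers that chose these bins were themselves higher in the zone (628 CPM against 82.5 in the mirror). Whether the bins held the same cells in both places was not tested, and the ratios of Lamb2 in other bins are not given here. Fibroblast bins had 879 and 398 CPM of Itgb1 at 3 days (log2 1.15, 0.86 to 1.42) and a log2 ratio of 0.05 (-0.35 to 0.45) at 28 days. Lama1 in fibroblast bins at 28 days had a log2 ratio of 1.30 (0.41 to 2.34). In astrocyte bins at 3 days Itgav had 415 and 157 CPM (log2 1.41, 0.84 to 1.94), and its partner Itgb8 had 760.5 and 360.2 CPM (log2 1.08, 0.68 to 1.46).

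Genes that work with these receptors were compared in the same way. Of all genes, 17.0% at 3 days and 16.4% at 28 days were at least 2-fold higher in the zone, and 8.57% and 7.82% lower. Of 18 ligands and matrix partners, 15 had enough UMIs at 3 days, of which 12 were at least 2-fold higher in the zone and 0 lower (median log2 1.80), and 10 were higher and 0 lower at 28 days (median log2 1.29). Spp1, osteopontin, which binds Itgav and Itga9 pairs, had 857 and 12.8 CPM at 3 days (log2 6.06) and 1763 and 33.9 CPM at 28 days (log2 5.70). Thbs1, thrombospondin 1, had log2 ratios of 5.80 and 3.14, Fn1, fibronectin, had 3.88 at 3 days, and Icam1, the ligand of Itgb2 pairs, had 3.69 at 28 days. Lowest were Agrn (log2 -0.20 and 0.01) and, at 3 days, Npnt (0.03). Of 18 genes of the intracellular adhesion complex with enough UMIs, 9 at 3 days and 7 at 28 days were at least 2-fold higher and 0 lower (median log2 0.996 and 0.69). Fermt3, the kindlin of blood cells, had log2 ratios of 1.97 and 3.93, Tln1, talin 1, had 1.83 and 2.03, and Parvg, the parvin of blood cells, had 3.69 at 28 days. Tln2, the talin abundant in neurons, had -0.51 and -0.73, and Ptk2, focal adhesion kinase, had -0.31 and -0.45. The neuron markers given above were lower in the zone too, and their part in these ratios was not tested. Of 8 other laminin receptors and partners, 3 at 3 days and 4 at 28 days were at least 2-fold higher and 0 lower (median log2 0.83 and 0.74), led by Sdc1 (3.75 and 1.97), Sdc4 (1.54 and 1.99) and Cd151 (1.62 and 1.45). Dst had 0.21 and 0.08, the lowest of these at 3 days.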

How the data were processed

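Visium HD sections of paraffin-embedded brain, fixed by perfusion, were analysed, 1 section at 3 days and 1 at 28 days after CCI. The deposited files hold raw UMI counts per gene and 16 µm bin, which the authors made with Space Ranger (4.0.1 per the file headers) and the mouse probe set, with no normalization; the build named in the submitters' processing notes is mm10. Promoters and positions are from RefSeq on GRCm38.p6.

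Only bins of at least 100 UMIs were used, which removed 1.93% and 2.15%. The border was column 130 at 3 days and column 240 at 28 days, with the lower columns on the injured side. Bins were summed in tiles of 4 by 4, and the zone was made of tiles in which the smoothed share (5 by 5 tiles) of the 6 phagocyte genes exceeded the opposite side's 99th percentile, in patches of at least 25 tiles. Ratios of CPM carry a pseudocount of 0.5 UMI and an exact conditional binomial interval at 95%, where both areas together held 20 UMIs or more, and a 2-fold difference was counted. Marker bins had at least 3 UMIs of the list. A tile took the region whose marker share, averaged over 3 by 3 tiles and divided by its 99th percentile, was highest and above 0.5. The alternatives were other scalings, filters, zone thresholds, reference areas, marker bin shares and tile thresholds. The scripts were tested on simulated data.

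The members and lists were chosen with earlier results of these data known. Members past 2-fold in the zone of either section, or highest in their family by CPM, were given values in the zone and its mirror, and some of them in the other areas. Other members named for bands and regions, the tiles rich in Neurod6 and the alternatives that leave out tiles were chosen after the values were seen. Tiles placed by layer 6 markers overlapped Neurod6 tiles, which were taken out of them, and tiles placed by CA1 markers lay mostly outside the hippocampus and were not used. Probe sequences were not analysed here, and 1 member enters the counts but is not reported here. TMM factors came from edgeR 4.0.16 in R 4.3.3, and the rest was done in Python 3.11.15 with scipy 1.17.1, numpy 2.4.6, pandas 2.3.3 and matplotlib 3.10.9.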

Additional observations from a re-analysis of the deposited data

Results flagged for a closer look

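Itga7 and Itga8 differed in direction between the sections. Itga7 was lower in the zone than in its mirror at 3 days (log2 -0.26) and higher at 28 days (log2 0.86), and Itga8 was lower at 3 days (log2 -1.02) and higher at 28 days (log2 0.76). The direction of Itga8 turned to log2 0.23 at 3 days for a zone above the 95th percentile and to -0.44 at 28 days against the whole opposite side, where the 3 day ratio of Itga7 was 1.08. The difference between the sections was not tested, because each is 1 animal. At 3 days 15.99% of the mirror's bins and 0 of the zone's lay in Neurod6 tiles, and without Neurod6 and dentate gyrus tiles Itga7 had a log2 ratio of 0.74 and Itga8 of -0.41 at 3 days.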

How the results depend on the processing

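No paired analysis was possible because each time point had 1 section. Of the values of members past 2-fold, 233 of 234 at 3 days and 223 of 223 at 28 days kept their direction over all alternatives of the zone comparison, and those of the sides all did (16 of 16 in each section). The exception was Itga8 at 3 days, with a log2 ratio of 0.23 for a zone above the 95th percentile. Some alternatives could not turn a direction. Other minimums of UMIs per gene leave a member's ratio as it was, and the fitted axis at 28 days was the border itself. TMM scaling and UMIs per bin each move all ratios of a section by 1 constant, too small to turn a value past 2-fold. Over all members compared in the zone, 96 of 362 values at 3 days and 31 of 400 at 28 days moved outside the counting interval of the main value. The alternatives of the side ratios were all bins of each side and no minimum of UMIs per bin, and neither moved the border. Of the members past 2-fold, those under 2-fold in at least 1 alternative were Itga6, Itga8, Itga11, Itgav, Itgb3, Itgb4, Itgb5, Lama1, Lamb2 and Lamc1 at 3 days and Itga1, Itga4, Itga10, Itgb1, Itgb8, Lama1 and Lama4 at 28 days. Of the side ratios, Lamb3 at 3 days and Lama1 at 28 days fell under 2-fold with all bins of each side (log2 0.46 and 0.95). With UMIs per bin in place of CPM, 10 members instead of 19 were at least 2-fold higher at 3 days and 2 instead of 1 lower (8.97% and 22.7% of all genes), and the zone's bins held fewer UMIs. At 28 days 15 instead of 19 were then higher and 0 lower (13.2% of all genes in each direction). The count at least 2-fold lower at 3 days was 0 for a zone above the 95th percentile or above the stricter one, with the fitted axis (column 154), without Neurod6 and dentate gyrus tiles, and without ventricular, choroid plexus and fibroblast-rich tiles (6.39%, 11.7%, 8.52%, 8.58% and 8.41% of all genes in that order). The last of these left 13 members higher and 1 lower at 28 days (14.9% and 7.17% of all genes). Endothelial bins at 3 days had 29 members at least 2-fold higher with the top 1% of bins (28.4% of all genes), against 19 (23.8%). The cause was not tested. TMM scaling moved all log2 ratios by -0.15 at 3 days and -0.05 at 28 days and left 18 and 17 members at least 2-fold higher (14.4% and 15.8% of all genes). Members with few UMIs, such as Itgae, Itga2 and Itga10, have intervals over 2 log2 units wide.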
